A study of Mus musculus with 531 samples.

Results

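The cells described here are 59 single cells of 1 mouse embryo at embryonic day (E) 5.5, divided by their cell number in the labels into 8 visceral endoderm cells and 51 epiblast cells. A cell was kept when at least 50000 of its reads lay on genes and at least 2000 genes had a read, and the visceral endoderm cells are those whose number is a multiple of 12. All 8 cells with these numbers passed, as did 51 of the 72 others, among 80 E5.5 cells and among 217 kept cells of 264 in the series. The embryo was of the C57Bl/6Babr strain, with no treatment and no altered allele, and the RNA of each cell had been separated from its DNA and amplified with Smart-seq2, a full-length cDNA method without molecular identifiers. The labels name the stage, the embryo (embryo 7) and the cell, but no lineage, so the lineage names rest on cell number and are set beside markers below. According to the study's methods, visceral endoderm and extraembryonic ectoderm had been pulled off the epiblast with a drawn glass pipette, and cells were then picked singly. The labels do not say what the cell numbers stand for, so cell number and lineage cannot be told apart, and all cells share 1 embryo, so levels and shares of cells are described and no test was made with cells as replicates. Cells of 1 embryo measure the spread between cells, not between embryos.

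The visceral endoderm is the epithelium that surrounds the epiblast and the extraembryonic ectoderm of the egg-cylinder embryo. It takes up maternal nutrients through the receptors cubilin and megalin, digests them in lysosomes and secretes apolipoproteins and carrier proteins, as the yolk sac and the liver do later. Its distal and anterior cells also secrete inhibitors of Nodal and Wnt signalling that pattern the epiblast, the pluripotent tissue from which the fetus forms.

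The visceral endoderm cells held 1165240 to 3352786 reads and 2222 to 4976 detected genes, against 600404 to 3772599 reads and 2219 to 7154 genes in the epiblast cells. The median number of detected genes was 4224 in visceral endoderm and 5599 in epiblast, although the median depth was higher in visceral endoderm, at 1806100 against 1497628 reads. Cell 24 stood apart among the 8, with the fewest genes (2222) and 18.8% of its reads on the 13 mitochondrial genes. The other 7 lay between 2.15% and 6.05% and the epiblast cells between 0.887% and 6.88%. Values without cell 24 are given below for the list genes whose call changed when it was left out.

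The 5 endoderm markers separated the cells without overlap. Amn and Cubn encode the subunits of the cubam receptor, Dab2 the adaptor that carries it into coated pits, and Apoa1 and Ttr encode the secreted apolipoprotein A-I and transthyretin. Levels are given as CPM, the reads of a gene scaled by all reads of the cell on genes, which are not divided by gene length. The 5 genes summed to between 8558 and 19205 CPM in the 8 visceral endoderm cells. In the 51 epiblast cells the sum had a median of 0.468 CPM and reached 93.2 CPM, and 26 of them held at least 1 such read.

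In cells 12, 24, 36, 48, 60, 72, 84 and 96, in this order, Apoa1 was at 5075, 7743, 8216, 6167, 9758, 8039, 2523 and 7506 CPM. Every one of these cells lay above the highest epiblast cell, at 56.6 CPM, and the epiblast median was 0. Amn was at 2260, 1421, 2917, 1168, 3099, 1288, 3815 and 2245 CPM in the same order, and at most at 92 CPM in epiblast. Cubn was at 150, 193, 806, 820, 1166, 1627, 998 and 616 CPM. No epiblast cell held a read of Cubn, and its 2 lowest visceral endoderm cells, 12 and 24, were also those with the most reads. Dab2 ranged from 364 to 1470 CPM in visceral endoderm and reached 45.9 CPM in epiblast. Ttr ranged from 859 to 4872 CPM in visceral endoderm, and the highest epiblast cell held 0.896 CPM.

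Pou5f1, which encodes the pluripotency factor OCT4, showed the opposite pattern. It lay between 356 and 3076 CPM in the 51 epiblast cells, with a median of 1822, and 3 of the 8 visceral endoderm cells held a read, the highest at 1.74 CPM. The markers and the division by cell number thus gave the same 2 sets of cells, with a gap between them on each of the 6 genes. Cells and markers had both been chosen with earlier results of these data known, so this match is a description and not an independent check.

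**Figure D1:**
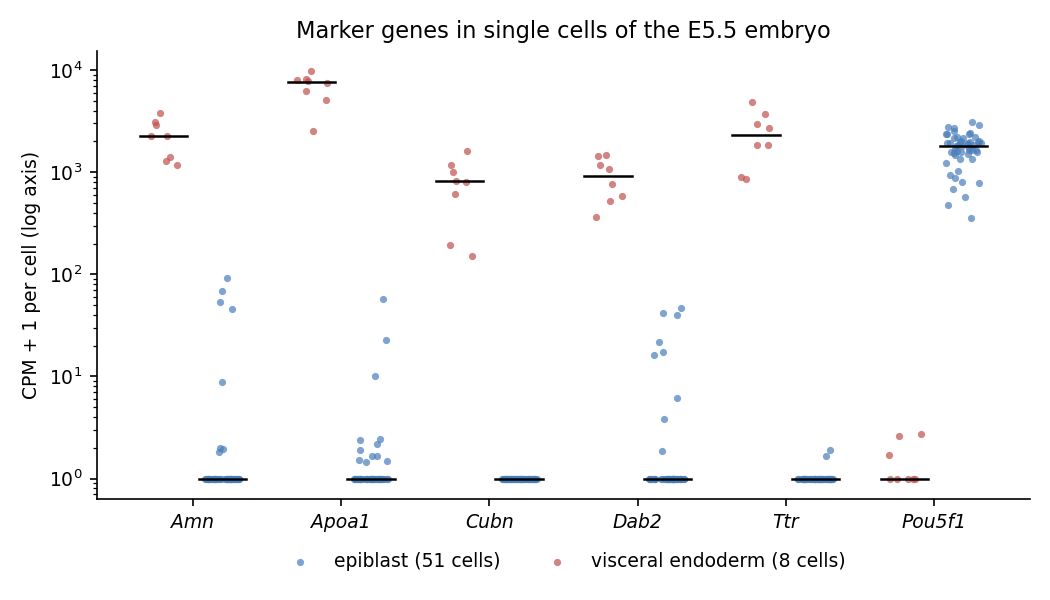
CPM + 1 of the 5 visceral endoderm markers and of Pou5f1 in each cell of the E5.5 embryo (log axis), with 1 point per cell and a black line at the median of 8 visceral endoderm and 51 epiblast cells. The lineages do not overlap on any of the 6 genes, and the highest epiblast cell reaches 92 CPM of Amn.

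Shares of cells with a read showed the same contrast and moved with depth where levels were low. All 8 visceral endoderm cells had reads of each of the 5 markers. Amn was read in 8 of the 51 epiblast cells (15.7%), Apoa1 in 12 (23.5%), Dab2 in 9 (17.6%) and Ttr in 2 (3.92%). After each cell was thinned to 50000 reads, these shares were 5.88% for Amn, 3.92% for Apoa1, 7.84% for Dab2 and 0% for Ttr, and no visceral endoderm cell kept a read of Pou5f1. Cubn was read in 0 of 51 epiblast cells, and the exact upper limit of that share was 6.98%. Such limits, and all intervals given here, cover counting error only.

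In the GENCODE vM21 annotation of GRCm38, Amn (ENSMUSG00000021278) lies at chr12:111271095-111276426, Dab2 (ENSMUSG00000022150) at chr15:6299788-6440712, Apoa1 (ENSMUSG00000032083) at chr9:46228580-46230466, Cubn (ENSMUSG00000026726) at chr2:13276338-13491813 and Pou5f1 (ENSMUSG00000024406) at chr17:35506018-35510772. The sequences before the starts of a visceral endoderm secretory gene, of the receptor gene that no epiblast cell expressed at a detectable level and of the epiblast marker are shown for context, as the 250 bases upstream of the RefSeq start on the strand of the gene (GRCm38.p6, Apoa1 at chr9:46228380-46228629 on the plus strand, Cubn at chr2:13491877-13492126 on the minus strand, Pou5f1 at chr17:35505782-35506031 on the plus strand).
Apoa1: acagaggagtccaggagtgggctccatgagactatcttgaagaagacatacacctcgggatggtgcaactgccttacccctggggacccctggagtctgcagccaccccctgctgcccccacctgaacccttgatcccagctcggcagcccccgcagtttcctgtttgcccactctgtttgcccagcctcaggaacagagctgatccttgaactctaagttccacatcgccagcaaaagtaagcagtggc
Cubn: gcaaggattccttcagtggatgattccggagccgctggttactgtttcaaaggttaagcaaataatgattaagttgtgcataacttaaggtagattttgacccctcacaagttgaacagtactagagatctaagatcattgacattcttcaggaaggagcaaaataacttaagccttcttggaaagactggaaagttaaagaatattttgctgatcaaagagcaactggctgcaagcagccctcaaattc
Pou5f1: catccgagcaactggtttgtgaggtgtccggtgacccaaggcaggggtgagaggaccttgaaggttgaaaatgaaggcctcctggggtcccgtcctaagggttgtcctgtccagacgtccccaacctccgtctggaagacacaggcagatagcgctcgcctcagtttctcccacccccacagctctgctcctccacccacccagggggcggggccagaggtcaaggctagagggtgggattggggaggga
These windows were searched on both strands for AGATAA (the GATA motif), CAAAGTCCA (an HNF4 motif) and ATTTGCAT (the octamer). None of the 3 windows holds any of them, so all letters are in lower case. Over 32851 promoters of the same length, 9.99% hold AGATAA and 1.60% the octamer. The shares were 7.89% and 0.896% over 558 promoters of genes called higher in visceral endoderm, as defined below, and 6.17% and 1.62% over 924 promoters of genes called lower. CAAAGTCCA stood in 0.384% of all promoters, in 0.358% of those of higher genes and 0.108% of those of lower genes.

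To compare all genes, the reads of the 8 and of the 51 cells were summed and scaled to CPM. A gene was tested for size when it reached 10 CPM in either sum, and was called when the sums differed at least 4-fold, the higher lineage was at 10 CPM or more and at least 50% of its cells held a read. Of 8063 genes, 553 (6.86%) were called higher and 903 (11.2%) lower in visceral endoderm. The median difference over the 8063 genes was -0.33 on the log2 scale. Over the 4874 genes at 10 CPM or more in both lineages it was -0.03. Without cell 24 the counts were 546 and 863. The count of lower genes depended on depth and was 442 after thinning to 50000 reads, with 407 higher.

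**Figure D2:**
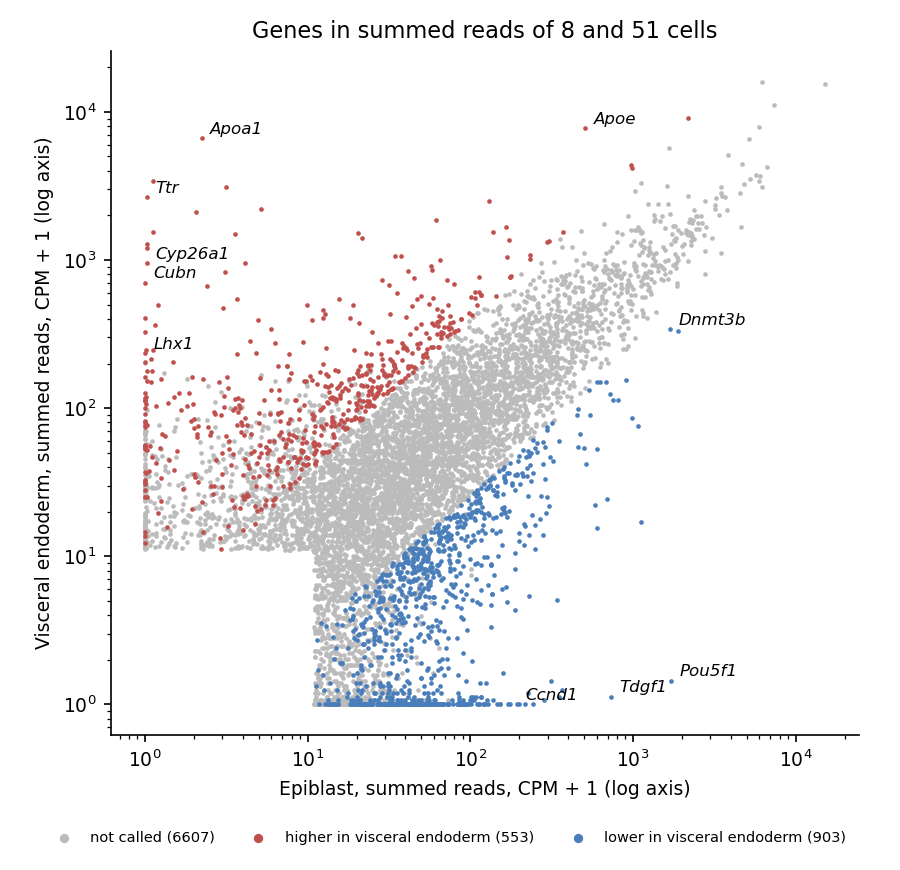
Summed CPM + 1 of each of the 8063 tested genes in 8 visceral endoderm cells against 51 epiblast cells (both axes log), with genes called higher in red (553), called lower in blue (903) and the others in grey. Apoa1, Ttr and Cubn lie far above the diagonal, Pou5f1, Tdgf1 and Ccnd1 far below it, and most genes along it.

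Of the 553 higher genes, 25 did not overlap between single cells, that is, the lowest of the 8 visceral endoderm cells lay above the highest of the 51 epiblast cells. The 15 with the largest ratios were Ttr, Pga5, Apom, Cyp26a1, Cubn, Apob, Apoa1, Rbp4, Srgn, Spink1, Cited1, Amn, Ctsh, Dab2 and Cotl1. Besides the secretory and endocytic genes they include Cyp26a1, whose enzyme degrades retinoic acid, at 947 CPM in visceral endoderm with 2 reads in all in epiblast. In the 8 cells, in the order given above, Cyp26a1 was at 359, 723, 959, 287, 1148, 2385, 1674 and 643 CPM. Spink1, a secreted inhibitor of trypsin, was at 3095 CPM against 2.17 CPM, a ratio of 1426 (95% counting interval 1228 to 1666). Its single cells lay between 1821 and 5670 CPM in visceral endoderm and at most at 64.7 CPM in epiblast. Srgn, the proteoglycan core of secretory granules, was at 2097 CPM against 1.07 CPM. Cited1, a transcriptional coregulator, was at 1494 CPM against 2.57 CPM. The 10 further genes without overlap were Ctsc, Sri, Gpc3, Ctsz, Ctsl, Apoe, Cd63, Npc2, Vamp8 and Atp6v0b, most of whose products act in lysosomes or late endosomes.

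Apolipoproteins and carrier proteins were higher in 11 of 12 tested list members, against 6.86% of all tested genes, and lower in none. The median difference over the 12 was 11.15 on the log2 scale. The markers Apoa1 and Ttr, whose difference was known from the division of the cells, are among the 11. Apoe, the lipoprotein component that epiblast cells also expressed, was at 7757 CPM in visceral endoderm against 509 CPM in epiblast, 15.2-fold higher (15.1 to 15.4), and was read in 48 of 51 epiblast cells. Apom, which carries sphingosine-1-phosphate, was at 3392 against 0.126 CPM. Apob, the structural protein of the large lipoproteins, was at 1540 against 0.126 CPM, and Mttp, which loads it with lipid, at 236 against 3.82 CPM. Lipid export genes of both kinds, the particle and its loader, were thus higher together. Rbp4, the plasma carrier of retinol, was at 496 against 0.202 CPM. It varied widely between the 8 cells, from 28.8 CPM in cell 60 to 1080 CPM in cell 12. Apoa4 (1283 CPM) and Trf (54.4 CPM) were read in 7 of 8 cells. Afp, alpha-fetoprotein, was read in 5 of 8 cells, at 615 CPM in cell 24 and between 4 and 186 CPM in the other 4. Apoa2 was called at 152 against 8.52 CPM, but among cells with at least 4000 detected genes (4 visceral endoderm, 37 epiblast) its log2 difference was only 0.38. Fgb, a fibrinogen chain, was at 79.2 CPM from 3 cells and was not called (it was among cells with at least 4000 genes), and no read of Alb, Apoc2 or Fga was found in the 8 cells.

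The uptake machinery was higher in 7 of 10 tested members and lower in 1, against 6.86% higher and 11.2% lower among all tested genes. The 7 include the markers Amn, Cubn and Dab2, whose difference was known from the division of the cells. The others were Lrp2, Lrpap1, Fcgrt and Clic6. The list itself was chosen with earlier results of these data known. Lrp2, which encodes megalin, was at 551 CPM against 107 CPM, 5.17-fold higher, and was read in 38 of 51 epiblast cells. In the 8 cells Lrp2 was at 14.6, 0, 1015, 1774, 930, 934, 62 and 542 CPM, so cells 12, 24 and 84 lay near the epiblast median of 57.1 CPM or below it. Without cell 48 the log2 difference of Lrp2 was 1.86, under the 4-fold limit. Its chaperone Lrpap1 was at 992 against 63.8 CPM. Clic6, a chloride channel family member, was at 112 CPM with no epiblast read, and Fcgrt, the neonatal Fc receptor, was at 176 against 0.114 CPM, each read in 5 of 8 cells. The member that was lower was Tfrc, the transferrin receptor, at 4.98 CPM from a single visceral endoderm cell (cell 72) against 156 CPM in epiblast, where 43 of 51 cells held reads.

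Lysosomal genes were higher in 10 of 14 tested members, against 6.86% of all tested genes, with none lower and a median log2 difference of 3.95. The cathepsins, the proteases of the lysosome, made up most of them. Ctsl was at 2513 against 129 CPM, Ctsz at 1851 against 60.8 CPM, Ctsc at 1410 against 20.5 CPM and Ctsb at 757 against 44.4 CPM. Ctsh was at 666 against 1.43 CPM, and its epiblast reads came from a single cell. Ctsl ranged from 772 CPM in cell 96 to 5096 CPM in cell 72, so the smallest visceral endoderm value was still above the highest epiblast value of 470 CPM. Lgmn, an asparaginyl protease, was at 541 against 2.69 CPM. Hexa, Lamp1 and Npc2 were also higher, at ratios of 26.4, 6.93 and 10.3. Ctsd, Psap, Lamp2 and Lipa were not called, with Ctsd at 62.9 against 74.4 CPM. Among cells with at least 4000 genes Psap was called lower and Lipa higher.

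**Figure D3:**
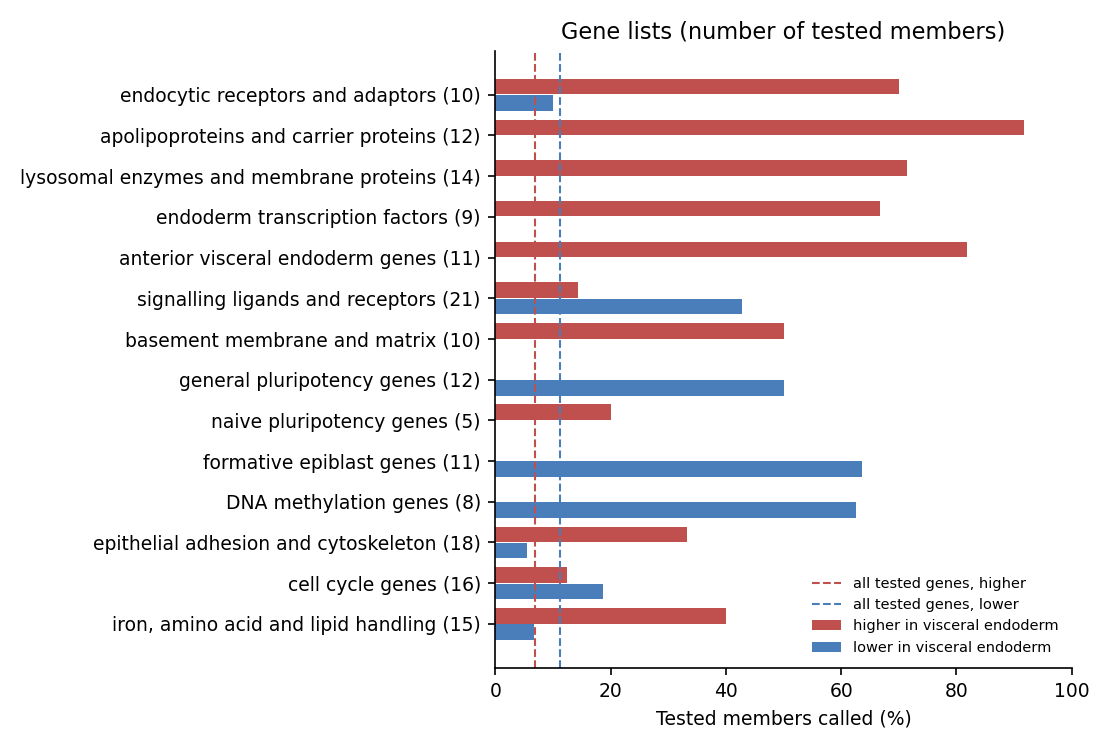
Percentage of the tested members of each gene list that were called higher (red) or lower (blue) in visceral endoderm, for lists with at least 5 tested members, with the number tested in parentheses. Dashed lines mark the percentages over all tested genes, 6.86% higher and 11.2% lower. Uptake, secretion, lysosome, endoderm factor and anterior lists extend to the red side, and pluripotency, formative and DNA methylation lists to the blue side.

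Transcription factors of endoderm were read in visceral endoderm cells, and unevenly. No read in any epiblast cell was found for 11 of the 13 listed, against 51 of all 244 list genes. Of 9 tested members 6 were called higher, against 6.86% of all tested genes, among them Gata4, Gata6, Foxa2, Hnf4a and Klf6, and 3 of 9 after thinning. No read of Gata4, Gata6, Foxa2, Hnf4a or Sox17 was found in the 51 epiblast cells. Gata4 was at 162 CPM in the sum, at least 4285-fold higher than the limit of 3 reads over the epiblast cells. In the 8 cells Gata4 was at 389, 0, 84.2, 0, 95.4, 435, 5 and 148 CPM. Gata6 was read in 6 cells, at up to 68.7 CPM, and each of the 8 cells other than cell 24 held reads of Gata4 or Gata6. Sox17 came from 3 cells (36, 60 and 96, at 139 to 273 CPM), under 50% of the 8, and was not called. Among cells with at least 4000 genes those were 3 of 4 visceral endoderm cells, and Sox17 was called higher, at 143 CPM with no epiblast read. Foxa2 was read in exactly 4 of 8 cells, so leaving out any of those cells takes it below 50% of cells, and Hnf4a (12.8 CPM) fell below 10 CPM without cell 84. At these levels a cell without reads cannot be told from a cell whose transcripts were missed.

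The anterior genes were higher in 9 of 11 tested members, against 6.86% of all tested genes, with none lower and a median log2 difference of 6.36, but they were not read in the same cells. The number called was 5 without cell 84 or without cell 96 and 6 without cell 72. Lhx1, a LIM homeobox factor, was at 467, 0, 154, 134, 125, 34, 575 and 239 CPM in the 8 cells, and no epiblast cell held a read, so the ratio was at least 6188. Hesx1, a homeobox repressor, was read in 6 cells at 258 to 403 CPM, and not in cells 72 and 84. Lefty1, a secreted inhibitor of Nodal, was at 1243 CPM in cell 72, 2010 CPM in cell 84, 173 CPM in cell 96 and 8 CPM in cell 24, and at 0 in the others. Cer1, which encodes an inhibitor of Nodal and BMP, was read in the same 4 cells, at 60, 121, 20 and 49 CPM in that order. Dkk1, a Wnt inhibitor, was read in cells 12, 60, 84 and 96, at 159, 713, 377 and 495 CPM. Gsc was read in cells 60, 72, 84 and 96. Hhex was read in 3 of 8 cells (37.5%), nearly all of it in cell 72 (408 CPM), and was not called because fewer than 50% of the cells held a read. Among cells with at least 4000 genes it was read in 2 of 4 and was called higher. Cells 84 and 96 were thus the only ones with reads of Lefty1, Cer1, Dkk1 and Gsc alike. Lefty1, Cer1, Dkk1 and Gsc each had reads in exactly 4 of 8 cells, so each lost its call (3 of 7 cells) when any of those 4 cells was left out. Without cell 24, Lefty1 was at 464 CPM and Cer1 at 27.1 CPM. The Wnt antagonists Sfrp1 and Sfrp5 were at 235 against 21.8 CPM and 149 against 1.85 CPM, in 7 and 6 of the 8 cells, and the receptor Fzd5 was at 76.2 against 2.69 CPM. Otx2, a factor of both tissues, was at 163 against 128 CPM and was not called.

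**Figure D4:**
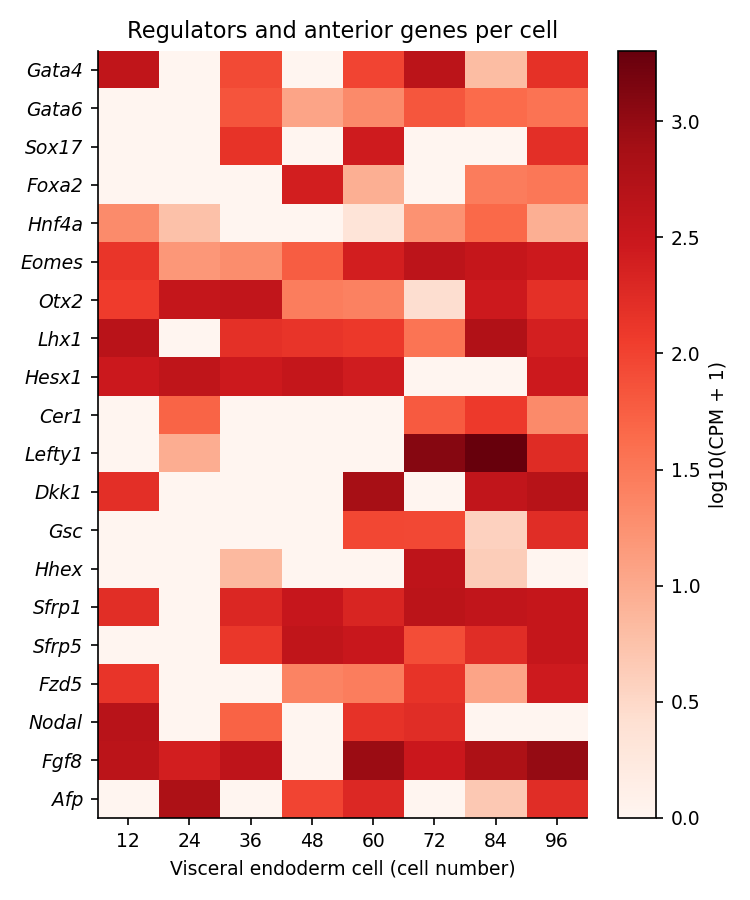
log10(CPM + 1) of 20 regulators, anterior genes and ligands in each of the 8 visceral endoderm cells, by cell number. Eomes and Otx2 have reads in all 8 cells, while Cer1 and Lefty1 have reads in cells 24, 72, 84 and 96 only, and Lefty1 is highest in cell 84 (2010 CPM).

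Among signalling genes, 3 of 21 tested members were higher and 9 lower, against 6.86% and 11.2% of all tested genes. The higher members were the ligands Nodal, Fgf8 and Vegfa. Fgf8 was at 435, 243, 412, 0, 893, 307, 624 and 965 CPM in the 8 cells and at 11.4 CPM in the epiblast sum. Nodal was read in 4 of 8 cells, with 475 CPM in cell 12, so its call was lost without any of them, and its log2 difference fell from 3.56 to 2.04 without cell 12. The lower members included Tdgf1, the Nodal coreceptor CRIPTO, which was read in all 51 epiblast cells at 19 to 1606 CPM and at no more than 0.391 CPM in any visceral endoderm cell. Fgf4 was at 47.9 CPM in epiblast, from 29 cells, with no read in visceral endoderm. The FGF and ERK response genes Dusp6, Etv5 and Spry2 were at 1.79, 1.79 and 2.04 CPM in visceral endoderm against 71.6, 81.8 and 24.7 CPM, although Spry2 was not called after thinning. Other genes of this kind did not share the pattern. Etv4 was at 43.9 against 12.7 CPM, from cells 24 and 72, and was not called. Spry4 was at 8.18 against 9.21 CPM, too low to be compared, with reads in 5 of 8 visceral endoderm and 20 of 51 epiblast cells. The receptors Fgfr1, Acvr2b and Ptch1 were also lower. Id3, a BMP target, lay at the limit, lower by 4.04-fold, with 691 CPM in cell 60. Its log2 difference was between -1.90 and -1.67 when any other of the 8 cells was left out, under the limit each time. Without cell 60 fewer than 3 reads were left in visceral endoderm and Id3 was called lower. With mean CPM over cells the log2 difference of Id3 was -1.90, and among cells with at least 4000 genes it was -0.82, both under the limit. Id2, a further BMP target, was at 37.4 against 66.4 CPM and was not called. Cell 24 held 219 CPM of it, and without that cell Id2 was called lower, at 1.91 CPM (log2 difference -5.12), as it was among cells with at least 4000 genes (-3.58). Fgf5 was at 137 against 39.2 CPM and was not called, but passed 4-fold without cell 12 (log2 difference 2.15) and among cells with at least 4000 genes (2.05). After thinning, 4 of 22 tested members were lower rather than 9 of 21, since Fgf4, Fgfr1, Ptch1, Spry2 and Id3 were no longer called, and the share of all tested genes fell from 11.2% to 5.33%.

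General pluripotency genes were lower in 6 of 12 tested members and formative genes in 7 of 11, with none higher in either list, against 11.2% of all tested genes. Besides Pou5f1, the lower pluripotency genes were Sox2, Lin28b, L1td1, Dppa4 and Mybl2. The log2 difference of L1td1 was -3.07, and -1.75 among cells with at least 4000 genes, under the limit. After thinning, Sox2 was read in 14 of 51 epiblast cells and in no visceral endoderm cell. These were too few cells for a call, and with visceral endoderm set to 3 reads the log2 difference of Sox2 could reach only -1.33. Dppa4 was at 0.383 against 114 CPM, and Lin28b at 0 against 46 CPM. Sall4, Lin28a, Utf1, Dppa2 and Trim28 were not called, although Utf1, at 62.6 against 241 CPM, was called lower under several alternatives, with log2 differences of -2.55 among cells with at least 4000 genes, -2.39 with mean CPM over cells, -2.87 after thinning and -2.61 without cell 12. Lin28a, for example, was at 57.3 against 99.5 CPM with reads in all 8 visceral endoderm cells, while its paralogue Lin28b had none. Of the formative genes, Pou3f1 was at 0 against 58.8 CPM, Pim2 at 16 against 1116 CPM and Slc7a3, an arginine transporter, at 0.256 against 364 CPM. Naive genes were mostly too low in both lineages, with 5 of 12 tested and Klf5 alone called, in the higher direction, from 4 of 8 cells. Dppa3 was at 144 against 88.3 CPM, with 771 CPM in cell 24, and at 21.5 CPM without that cell. Dppa5a, whose pseudogenes may share its reads, was at 1114 against 3500 CPM, and at 832 CPM without cell 24. Without cell 24 both genes were thus called lower (log2 differences of -2.04 and -2.07). Klf5, then at 41.7 CPM from 3 cells, was no longer called. The naive list turned from 1 higher and 0 lower to 0 higher and 2 lower of 5.

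The genes that write and remove DNA methylation were lower in 5 of 8 tested members, against 11.2% of all tested genes, and none was higher. Dnmt3b, the main de novo methyltransferase of the epiblast, was at 343 CPM in visceral endoderm against 1695 CPM in epiblast. In the 8 cells Dnmt3b was at 11.9, 76.6, 888, 476, 324, 1361, 16.3 and 193 CPM, and in epiblast it ran from 194 to 4355 CPM with a median of 1826. The lineages therefore overlapped, and cells 36, 48, 60 and 72 lay within the epiblast range. Dnmt3a was at 89.5 against 544 CPM, and Dnmt3l, the catalytically inactive cofactor, at 0 against 50.4 CPM, with reads in 37 of 51 epiblast cells. Tet1, a dioxygenase that oxidizes 5-methylcytosine, was at 8.95 against 126 CPM, and 87.9 CPM of it lay in cell 96. Dnmt1, the maintenance methyltransferase, was at 9.27 against 46.9 CPM, and its partner Uhrf1, at 86.6 against 173 CPM, was not called. The calls of Dnmt1 and Dnmt3b lay close to the limit, with log2 differences of -1.99 and -1.97 without cell 12. Dnmt1 was read in only 2 of the 8 cells, nearly all of it in cell 36, and its difference was -6.82 without that cell. With mean CPM over cells and after thinning it was -1.86 and -1.66, under the limit. Among cells with at least 4000 genes, the differences were -1.26 for Dnmt1, -1.91 for Dnmt3a and -1.48 for Dnmt3b, so these 3 genes kept their direction but passed under 4-fold. The list then held 2 lower members of 8, where 15.5% of all tested genes were lower. Without cell 12 it held 3 of 8, against 11% of all tested genes.

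The 15 genes with the largest ratios among those lower in visceral endoderm, read in at least 80% of epiblast cells and with all 8 cells below the epiblast median, were Pou5f1, Tdgf1, Gstt2, Fundc2, Slc7a3, Ifitm2, Prps1, Hormad1, Ccnd1, Tmsb4x, 1700019D03Rik, Pla2g1b, Pmm1, Socs2 and Gm38393. They come from 159 genes that met this description. Ifitm2, an interferon-induced membrane protein, was read in all 51 epiblast cells, at 14.1 to 747 CPM, and in none of the 8 visceral endoderm cells. Ccnd1, cyclin D1, was at 192 CPM in epiblast, from 45 of 51 cells, with no read in visceral endoderm, at least 1004-fold lower. Tmsb4x, thymosin beta 4, was at 174 CPM against no read. Ifitm2, Gstt2 and Tmsb4x belong to families with close copies, among which reads could be divided by the counting.

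Of 16 cell cycle genes, 2 (12.5%) were called higher and 3 (18.8%) lower, not far from the 6.86% and 11.2% of all tested genes, and 11 neither. Among the 11, Cdk1 was at 421 against 298 CPM, Ccnb1 at 355 against 561 CPM and Top2a at 150 against 385 CPM, whereas Cdkn1c (40.5 CPM from 22 of 51 cells) and Ccnd2 (18.3 CPM from 11 cells) were read in epiblast only and were not called because fewer than 50% of epiblast cells held a read (Cdkn1c was called lower among cells with at least 4000 genes). Mki67 and Cdkn1b were called higher, and Ccnd1, Ccne1 and Cdkn1a lower. Cdkn1a, the inhibitor p21, was at 0.128 against 116 CPM, and after thinning it was read in 25 of 51 epiblast cells (49%) and in no visceral endoderm cell, just under the 50% of cells that a call needs. Ccne1, cyclin E1, was at 34.8 against 193 CPM, and its log2 difference was -1.81 among cells with at least 4000 genes and -1.98 after thinning, under the limit in both. Mki67, a proliferation antigen, was at 252 against 37.5 CPM, although among cells with at least 4000 genes its log2 difference was 1.83, under the limit. Cdkn1b was read in 4 of 8 cells only (12, 48, 60 and 84) and lost its call without any of them, at log2 differences of 2.11 to 3.00, and after thinning. Among cells with at least 4000 genes it was read in 1 visceral endoderm cell and was not called, and the list then held 0 higher and 3 lower members of 16.

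Epithelial genes differed in composition, with 6 of 18 tested members higher and 1 lower, against 6.86% and 11.2% of all tested genes. The simple-epithelium keratins Krt8 and Krt18 were at 498 against 18.1 CPM and 578 against 115 CPM. Cdh2, N-cadherin, was at 80.2 against 5.73 CPM, whereas Cdh1, E-cadherin, was at 93.1 against 139 CPM and was not called. Pdzk1, an apical scaffold, was at 126 against 0.618 CPM, and Ezr, which links it to actin, at 493 against 109 CPM, with a log2 difference of 1.85 without cell 12. Itga6 was called from 4 of 8 cells. Its log2 difference passed under the limit with mean CPM over cells (1.98), after thinning (1.93) and without cell 60 (1.73), 72 (1.27) or 84 (1.93). The lower member was Cldn4, a claudin, at 0 against 152 CPM. Epcam, an epithelial adhesion molecule, was at 81.5 against 325 CPM and missed the limit by little (log2 difference -1.998). It was called lower under 5 alternatives, namely among cells with at least 4000 genes (-2.95), with mean CPM over cells (-2.15), after thinning (-2.79), without cell 24 (-2.61) and without cell 84 (-2.16). Cldn6 and Cldn7 were at 827 against 274 CPM and 256 against 102 CPM, and neither was called, though both passed 4-fold among cells with at least 4000 genes.

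Of the matrix genes, 5 of 10 tested members were higher, against 6.86% of all tested genes, and none lower. Col4a1 and Col4a2, the chains of basement membrane collagen IV, were at 274 against 5.34 CPM and 101 against 2.07 CPM. Nid1 was at 80.6 CPM with no epiblast read, and Serpinh1, the collagen chaperone, at 548 against 46.1 CPM. The laminin genes Lamb1, Lamc1 and Lama5 were between 2.36 and 2.71 times as high as in epiblast and were not called, though Lamc1 and Lama5 passed 4-fold among cells with at least 4000 genes.

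Genes of iron, amino acid and lipid handling were higher in 6 of 15 tested members and lower in 1, against 6.86% and 11.2% of all tested genes. Soat2 and Pla2g12b, of cholesterol esterification and lipid secretion, were at 327 and 402 CPM with no epiblast read. Slc40a1, the iron exporter ferroportin, was at 196 against 11.5 CPM, while the ferritin genes Fth1 and Ftl1 were at ratios of 1.95 and 1.53. The transporters of glucose and monocarboxylates diverged by member. Slc2a3 was at 600 against 34.5 CPM and Slc16a1 at 853 against 57.2 CPM, and Slc2a1 at 88.1 against 279 CPM was not called, although it was called lower without cell 12, at 60.3 CPM, and after thinning, at 60 against 296 CPM. Slc7a5, an amino acid transporter, was lower, at 0.256 against 30.5 CPM, but was not called after thinning, when 20 of 51 epiblast cells and no visceral endoderm cell held a read. In all lists together, 69 of 173 tested genes (39.9%) were higher and 31 (17.9%) lower, against 6.86% and 11.2% of all tested genes, in lists that were chosen with earlier results of these data known. The lists also hold the markers of the 2 lineages.

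Markers of other tissues that the dissection could have brought along were for the larger part without reads in the 8 cells. Over all 244 list genes, 61 had no read in the 8 cells and 51 none in the 51 epiblast cells. The share over all genes was not computed, and a weak gene can be missed in 8 cells. Of 12 trophoblast and extraembryonic ectoderm markers, 10 had no read in any of them, Elf5, Cdx2, Esx1, Hand1 and Gata3 included. The sum of the list ran from 14.1 to 420 CPM in visceral endoderm and from 0 to 173 CPM in epiblast, and in visceral endoderm nearly all of it was Eomes, which was read in all 8 cells and is also a gene of visceral endoderm. Of 9 parietal endoderm markers, 5 had no read in the 8 cells, Thbd, Snai1, Plat and Stra6 among them. Pth1r (72.4 against 0.997 CPM) and Sparc (690 against 78 CPM) were called higher, and the sum ran from 40.6 to 2078 CPM against 0 to 503 CPM. Of 9 mesoderm markers, 6 had no read, T and Mesp1 included, and Mixl1 was called at 27 CPM from 5 cells (not called after thinning, nor among cells with at least 4000 genes, where it was at 0.991 CPM), with a sum of 0 to 353 CPM against 0 to 381 CPM. None of the 9 blood and decidua markers had a read in the 8 cells, while their sum in epiblast ran from 0 to 222 CPM, with Dcn read in 13 of 51 cells. In the 51 epiblast cells no read was found for 3 of the trophoblast, 4 of the parietal endoderm, 6 of the mesoderm and 5 of the blood and decidua markers. The part of parietal endoderm in the matrix genes was not tested.

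The 21 E5.5 cells that failed the filter held no further cells with this profile. Of these, 19 had at least 50000 reads but at most 1836 detected genes, and 5 held a read of Apoa1, Amn, Dab2 or Cubn, 5 reads in all.

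The other stages were examined with 4 of the markers (Apoa1, Amn, Dab2 and Cubn), of each of which a cell had to hold at least 10 CPM. At E5.5, 8 of 59 cells passed it, and none of them had 10 CPM of Pou5f1. At E4.5, 3 of 75 cells from 5 embryos passed it, all 3 with at least 10 CPM of Pou5f1. The sum of the 4 genes nevertheless divided the E4.5 cells as well, into 20 cells at 0 to 283 CPM and 55 cells at 1047 to 16193 CPM, with the widest gap on the log scale between these sets, a description made after the values were seen. All 55 held at least 10 CPM of Amn, Cubn and Dab2, with medians of 1380, 2317 and 1457 CPM, and 3 of them held 10 CPM of Apoa1, so Apoa1 alone kept the others from passing. Of the 55 cells 54 also held at least 10 CPM of Pou5f1, with a median of 584 CPM against 1533 CPM in the 20 cells, so the E4.5 division was not one of cells with and without Pou5f1. At E6.5, 75 of 83 cells from 2 embryos passed it, 74 of them with at least 10 CPM of Pou5f1 as well. No E6.5 cell was without a read of the 4 genes, against 25 of 59 at E5.5. The sum of the 4 genes had a median of 2910 CPM in E6.5 embryo 1 and 717 CPM in E6.5 embryo 2. Each of these stages carries its own prefixes in the labels, whose meaning the labels do not give, so prefix and stage cannot be told apart.

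**Figure D5:**
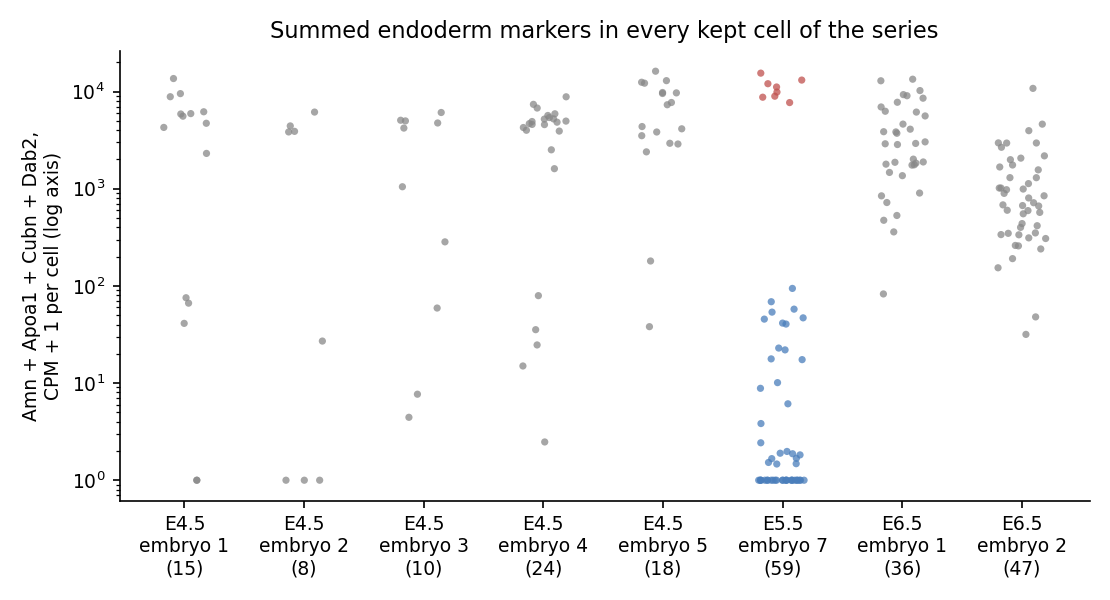
Sum of Apoa1, Amn, Dab2 and Cubn in CPM + 1 (log axis) in each of the 217 kept cells, by stage and embryo, with the number of cells in parentheses, the E5.5 visceral endoderm cells in red and the E5.5 epiblast cells in blue. The E5.5 cells leave a wide gap, the E4.5 cells a narrower one between 283 and 1047 CPM, and the E6.5 cells form a continuous spread, with medians of 2910 and 717 CPM in embryos 1 and 2.

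For this reason the E5.5 genes could be compared with E6.5 cells only in part. In E6.5 embryo 1, 35 cells passed the threshold and no cell was left to compare them with. In E6.5 embryo 2, 40 cells that passed it were set against 6 cells with at least 10 CPM of Pou5f1 that did not. Of 549 genes called higher at E5.5, the 4 markers left out, 97 (17.7%) were also called higher in these 40 cells, against 6.58% of 8232 tested genes. Of 902 called lower, without Pou5f1, 15 (1.66%) were also lower, against 2.44%. The cells on either side differed little in Pou5f1, at 903 against 1251 CPM, so the E6.5 contrast was not one of Pou5f1-negative against Pou5f1-positive cells.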

How the data were processed

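Single cells had been isolated from embryos and their RNA and DNA separated (scM&T-seq), and the RNA was sequenced as Smart-seq2 libraries. The authors deposited whole-number counts of reads per gene for each cell, without normalization. Per the submitters' processing notes, reads were trimmed with Trim Galore (version 0.4.2), aligned to GRCm38 with HISAT2 (version 2.1.0) and counted with featureCounts, and the annotation is not given in the sources used here. Whether counting used strand or divided reads between gene copies is not given either. Symbols were matched for 21907 of 22084 identifiers. The bisulfite data are not analysed here, and a few list genes are not reported by name.

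Counts were scaled by the reads of each cell, or summed over the cells of a lineage, with python 3.11.15 (pandas 2.3.3, numpy 2.4.6, scipy 1.17.1). Genes at 10 CPM in either sum were compared, and a gene was called at a 4-fold difference with reads in at least 50% of cells of the higher lineage. Where a lineage had fewer than 3 reads, 3 reads over the group served as a limit. Where it had 1 or 2 reads, levels and no ratio are given. Intervals are exact at 95% (conditional binomial for ratios of counts, Clopper-Pearson for shares). The members, marker genes and 18 gene lists (244 genes) were chosen with earlier results of these data known. The named genes are the list genes and, in each direction, the 15 largest ratios among called genes that met a rule on single cells, given in the report (no overlap for higher genes, and for lower genes reads in at least 80% of epiblast cells with all 8 cells below the epiblast median). The procedure was tested on simulated counts. Alternatives were cells with at least 4000 genes, no cell filter, mean or median CPM, TMM factors (edgeR 4.0.16), thinning to 50000 reads, no minimum level, 2-fold and 8-fold limits, and each visceral endoderm cell left out. The search for motifs and the counts by chromosome were chosen only after values had been seen. No doublets were called.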

Additional observations from a re-analysis of the deposited data

Results flagged for a closer look

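Each of 18 quantities (reads, detected genes, mitochondrial share and the levels of the markers and the higher genes named first) was examined for a visceral endoderm cell that lay far from the other 7, which chance alone gives in about 1 in 20, or 0.9 of 18. Cell 24 did so in 2 of them. Its mitochondrial share was 18.8%, and the next highest cell held 6.05%. Its level of Ctsh was the lowest, at 7.33 on the log2(CPM + 1) scale, where the next lowest cell stood at 9.23. Cell 24 was also the cell with the fewest detected genes (2222), without reads of Gata4, Gata6, Lhx1, Lrp2 or Sfrp1. Its Apoa1, Ttr and Apob, at 7743, 4872 and 2041 CPM, lay within the range of the other 7 cells or, for Ttr, above it.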

How the results depend on the processing

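The main counts were 553 higher and 903 lower genes. Without a cell filter there were 568 higher and 505 lower genes, and after thinning to 50000 reads 407 and 442. Without a minimum level there were 1428 higher and 4754 lower genes, at 2-fold 1109 and 1641, and at 8-fold 293 and 572. Leaving out each visceral endoderm cell gave 429 to 546 higher and 863 to 1031 lower genes, the extremes without cells 72 and 24. With cells of at least 4000 genes there were 815 and 1278, which held 371 of the 553 and 630 of the 903, and with median CPM 738 and 1244, which held 387 and 542 of them. With TMM factors the median of genes shared by both lineages moved by less than 0.1 on the log2 scale. Thinning took the share of epiblast cells with a read to 5.88% for Amn, 3.92% for Apoa1, 7.84% for Dab2 and 0% for Ttr, and that of visceral endoderm cells with a read of Pou5f1 to 0%. Of 117 called genes among those named, none changed direction under the alternatives run for single genes (cells with at least 4000 genes, mean CPM, TMM, thinning and each cell left out), 13 were no longer called with cells of at least 4000 genes, 4 with mean CPM, 1 with TMM and 22 after thinning, and 17 when some visceral endoderm cell was left out. Conversely, 27 list genes without a call gained one under at least 1 of these alternatives, 13 as higher and 14 as lower, of which 21 did so among cells with at least 4000 genes and 4 without cell 24. The cause of these changes was not tested, apart from genes with reads in exactly 4 of 8 cells, which pass under 50% by construction. No paired analysis was possible because both lineages come from 1 embryo and no replicate number is shared. With 8 cells, a gene read in fewer than 4 of them could not be called higher, and a gene without reads may be expressed below detection.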

Other observations

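Genes of the X chromosome were more often lower in visceral endoderm than those of any autosome, a count made after the data had been seen. Of 302 tested X-linked genes, 60 (19.9%) were called lower and 28 (9.27%) higher, where the 19 autosomes held 7.87% to 15.7% of lower and 4.71% to 9.22% of higher genes, and all tested genes 11.2% and 6.86%. The X chromosome thus stood above each autosome in both directions, by little for the higher genes. The median log2 difference of the X-linked genes was -1.17, against -0.51 to 0.01 on the autosomes. Over the 164 X-linked genes at 10 CPM or more in both lineages it was -0.33, against -0.21 to 0.23. The share of X-linked genes that were lower exceeded that of all genes under each of 17 alternatives, at 11.9% to 45.1% against 5.33% to 35.1%, with the narrowest ratio among cells with at least 4000 genes, 19.4% against 15.5%. In single cells the lineages overlapped, with 2.1% to 3.84% of reads on X-linked genes in the 8 visceral endoderm cells (median 3.26%) and 1.98% to 7.72% in the 51 epiblast cells (median 4.20%). Fundc2, Slc7a3, Prps1 and Tmsb4x, named above among the genes with the largest ratios, are X-linked, and so are Cited1 and Gpc3, which were higher in visceral endoderm. No test was made, since all cells come from 1 embryo.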
